A study of Mus musculus with 11 samples.

Results

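Cadherins are calcium-dependent adhesion molecules that hold neighbouring cells together, and protocadherins are the largest subfamily of this kind in the brain. Classical cadherins bind beta-catenin with their cytoplasmic tail, beta-catenin binds an alpha-catenin, and the alpha-catenin connects the complex to actin. In the developing brain these molecules guide cell sorting, axon growth and synapse formation, and beta-catenin also acts as a transcriptional co-activator of the Wnt pathway. The clustered protocadherins lie in adjacent arrays of genes (alpha, beta and gamma) on chromosome 18, from which each neuron expresses its own combination.

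The genes described here were all genes on the array with a mouse symbol beginning with Cdh and a digit, with Pcdh, or with Ctnna, Ctnnb or Ctnnd, except Cdh5, which marks endothelium. A probe was tested if 5 or more of the 11 arrays measured it well above background, and each gene was represented by its brightest probe. Of 77 such genes on the array (98 probes), 76 passed (96 probes), out of 17188 genes tested in all, and 66 were well above background on all 11 arrays. Cdh17, an intestinal cadherin, was well above background on 2 arrays and was not tested. A further 24 genes of these families, among them Pcdh11x and most gamma protocadherins, had no matched probe and were not analysed here. Of the 76 genes, 39 lie on chromosome 18.

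The arrays measured RNA from the hypothalamus of male C57BL/6N mouse offspring at postnatal day 21. In the 6 HFD samples the dams had eaten a high-fat diet from weaning until the end of lactation, and in the 5 CO samples the dams had eaten standard chow over the same time. The comparison asked which hypothalamic transcripts differ in the offspring after maternal obesity. The labels do not say whether a sample was a single pup or whether samples shared a dam, so the p-values measure only the spread between these samples, which may in part be technical. Titles of CO samples share leading numbers, whose meaning the labels do not give.

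The HFD and CO arrays lay on separate slides, were scanned 337 days apart and were read with different extraction protocols, so that maternal diet and these steps cannot be told apart. Spots well above background made up 71.8 to 77.4% on HFD arrays and 82.5 to 85.7% on CO arrays. Signals are given as log2 intensities relative to the 75th percentile of the array, so that a difference of 1 is a 2-fold change. Relative to spike-in RNA instead of this percentile, every HFD minus CO difference lay 0.67 lower. All 17 listed hypothalamic markers were measured (3 higher and 2 lower in HFD samples). Marker lists were averaged with each gene centred on its own mean. HFD replicate 1 was the lowest HFD sample for hypothalamus, at -0.55 (others 0.05 to 0.40), and choroid plexus, at -1.12 (others -0.15 to 0.35). It was also the lowest for cortex and hippocampus, at -1.28 (others -0.26 to 0.22), and the highest for pituitary, at 1.02 (others -0.59 to 0.01). The groups did not overlap in the thalamic, oligodendrocyte and red blood cell lists and overlapped in the striatal list. The mean of 3 red blood cell markers ranged from -0.45 to 0.02 in HFD samples and from 0.11 to 0.43 in CO samples. The mean of 12 striatal markers (0 higher, 10 lower) ranged from -1.31 to 0.15 in HFD samples and from -0.59 to 1.62 in CO samples, that of 10 thalamic markers (7 higher, 1 lower) from 0.05 to 0.44 in HFD samples and from -0.63 to -0.02 in CO samples, and that of 10 oligodendrocyte markers (0 higher, 7 lower) from -0.27 to -0.08 in HFD samples and from 0.15 to 0.29 in CO samples. The remaining calls were 1 higher and 4 lower of 10 for cortex and hippocampus, 5 and 3 of 11 for endothelium and pericytes, and 2 and 2 of 8 for astrocytes. They were 3 and 3 of 8 for microglia, 1 and 1 of 4 for pituitary, 0 and 2 of 6 for choroid plexus, and 0 and 3 of 3 for red blood cells. Over all genes tested, 22.2% were higher and 44.1% lower in HFD samples. The part of these cell types in the differences between the groups was not tested, and in a bulk tissue fewer cells of a type and less RNA per cell cannot be told apart.

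Of the 76 genes, 26 were higher and 29 lower in HFD samples at an adjusted p under 0.05 (limma), and 21 did not pass. The lower genes include Cdh23 and Pcdhga5, which entered the test only through the CO arrays, no HFD array measuring them well above background. Together that is 72.4% of them, beside 66.4% of all genes tested. The share of all genes was 22.2% for higher and 44.1% for lower calls. The median difference was 0.04 over the family and -0.17 over all genes tested. Signals did not overlap between the groups for 37 genes, 18 with HFD above and 19 with HFD below, against 46.6% of all genes in either direction (16.1% above and 30.5% below). A measured difference of 2-fold or more was seen in 5 genes that were higher and 6 that were lower in HFD samples (5.61% and 10.0% of all genes). The 6 lower ones include Cdh23, whose HFD signals were not well above background. Its bound of 1.88-fold lies under this limit, so a 2-fold change is not shown for it. Among the 66 genes well above background on every array, 25 were higher and 21 lower, beside 24.4% and 41.6% of all such genes. The exact Mann-Whitney test called 52 of the 76 genes, beside 63.3% of all genes, and the Rank Product test 3 higher genes (Cdh12, Cdh19 and Pcdh15) and 0 lower ones, beside 2.69% and 2.21% of all genes. The split between higher and lower calls moved with the scaling. It was 28 to 21 after quantile normalization (24.9% and 39.4% of all genes), 31 to 23 with scaling to the array median (24.5% and 37.3%), and 4 to 55 with scaling to spike-in RNA (5.57% and 83.5%), where the median of all genes also lay at -0.84. Another background correction (normexp) gave 19 higher and 8 lower, beside 15.6% and 22.5% of all genes. It ended the calls of Cdh11, Cdh16, Cdh18, Cdh20, Cdh23, Cdh24, Ctnnbl1, Pcdh1, Pcdh10, Pcdh12, Pcdh19, Pcdha4, Pcdhac1, Pcdhb1, Pcdhb5, Pcdhb9, Pcdhb16 and the gamma protocadherins named here, and of Dsc2, Dsg3, Fat2, Magi2, Ncstn, Nectin1 and Ptprm among their partners.

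**Figure D1:**
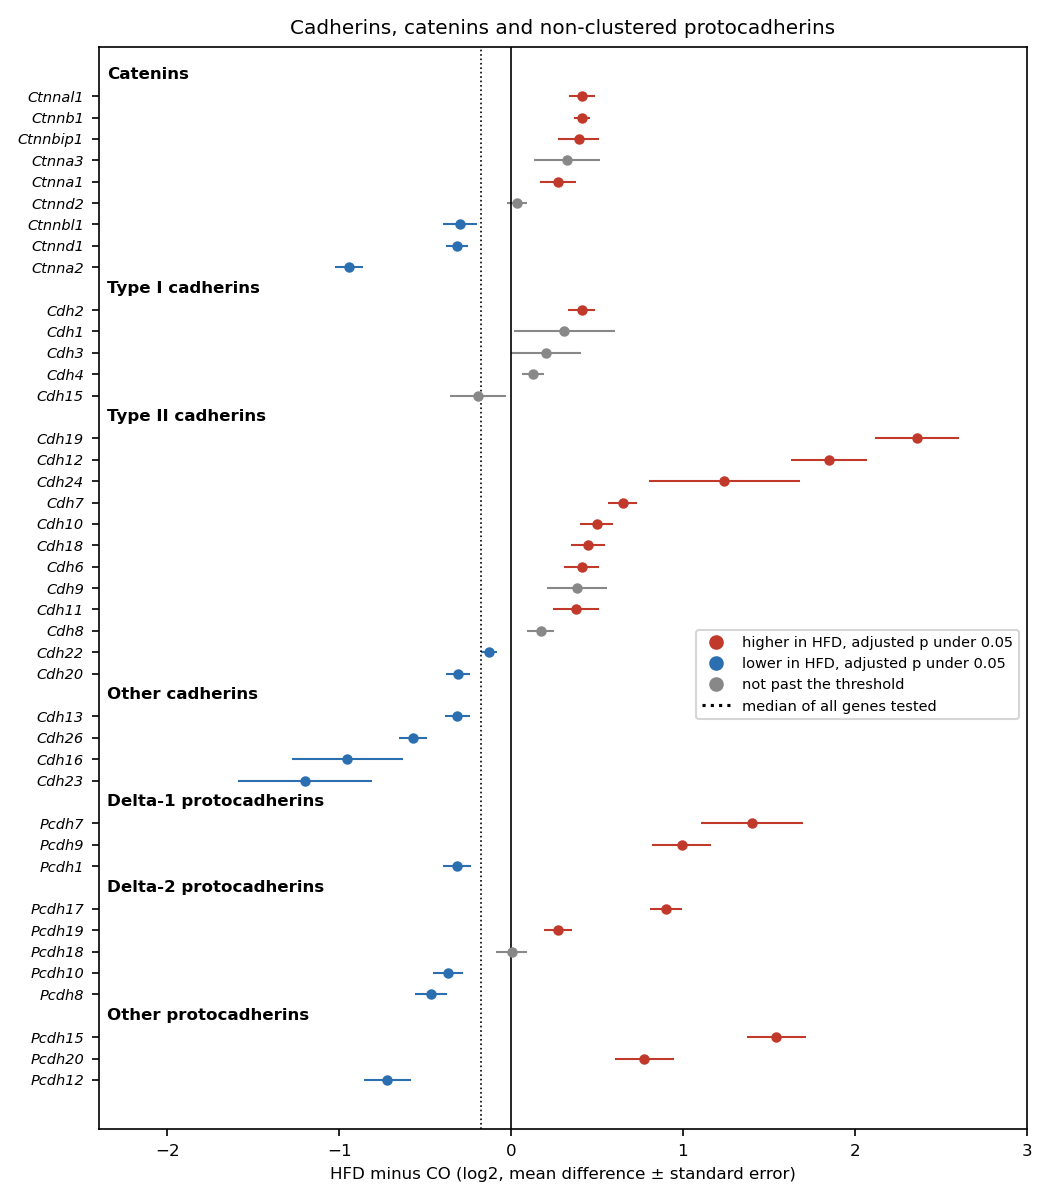
Difference between HFD and CO samples (HFD minus CO, log2, with its standard error) for the 41 cadherins, catenins and non-clustered protocadherins, by group of genes. Red points were higher and blue points lower in HFD samples at an adjusted p under 0.05, and Cdh19 at 2.36 and Cdh12 at 1.85 lie farthest to the right. Cdh23 is drawn from HFD signals not well above background, and scaling to spike-in RNA would move every point 0.67 to the left.

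Among the 9 catenins, 4 were higher and 3 lower in HFD samples (22.2% and 44.1% of all genes). However, all 4 of the higher ones turned negative with scaling to spike-in RNA. That scaling gave 0 higher and 8 lower (5.57% and 83.5% of all genes). The largest change was in Ctnna2, the neural alpha-catenin, which links cadherin complexes to actin in neurons and was measured by 2 probes annotated to different transcripts. The brighter probe, annotated to NM_009819, gave signals of 1.68, 1.76 and 1.99 (lowest, median and highest) in the 6 HFD samples, against 2.70, 2.75, 2.59, 2.91 and 2.82 in CO replicates 1 to 5. All HFD samples lay below all CO samples. The difference was -0.94 ± 0.08 (log2, SE), with an adjusted p of 2.62e-06, a 1.92-fold lower level in HFD samples. The second probe, annotated to NM_001109764, gave signals of -3.78, -3.66 and -3.40 (lowest, median and highest) in the 6 HFD samples, against -0.44, -0.56, -0.87, -0.22 and -0.46 in CO replicates 1 to 5. The gap between the groups was here several times the spread within either, and again no samples overlapped. This probe differed by -3.11 ± 0.11 (log2, SE), with an adjusted p of 1.53e-08 over all probes, and was 8.61-fold lower in HFD samples. Both Ctnna2 probes stayed lower in HFD samples, past the threshold, under every scaling, background correction and left-out library tried. Scaling to spike-in RNA lowers every difference, so it could not have turned these. The probes can bind different transcripts of the gene and are not replicates of each other, and their levels cannot be set against one another.

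Ctnna2 lies on chromosome 6, and the 250 bases before its annotated start (RefSeq, GRCm38.p6, chr6:77979668-77979917, minus strand) are shown because both of its probes fell. The capitals mark CACCTG, an E-box of the kind bound by repressors of cadherin genes, searched on both strands.
Ctnna2: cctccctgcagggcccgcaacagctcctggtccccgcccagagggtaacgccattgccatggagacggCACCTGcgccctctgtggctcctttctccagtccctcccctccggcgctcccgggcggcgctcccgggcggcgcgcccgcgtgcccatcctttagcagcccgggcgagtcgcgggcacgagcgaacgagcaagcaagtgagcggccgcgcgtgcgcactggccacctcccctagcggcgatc
This motif was present in the corresponding 250 bases of 17.1% of 27025 genes and of 3 of the 30 family genes with an entry, and CTTTGA, the core of the TCF/LEF motif read by beta-catenin, in 14% of genes and 1 of the 30. A match is a description of the letters and not of binding.

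Ctnnb1, which encodes beta-catenin, gave signals of 3.16, 3.27 and 3.30 (lowest, median and highest) in the 6 HFD samples, against 2.83, 2.81, 2.80, 2.91 and 2.85 in CO replicates 1 to 5. Every HFD sample was above every CO sample, and the SD was under 0.05 in both groups. The difference was 0.41 ± 0.05 (log2, SE), with an adjusted p of 1.85e-05 (1.33-fold higher in HFD samples). Ctnnal1 (alpha-catulin, a relative of the alpha-catenins) was higher by 0.41 ± 0.08, and Ctnnbip1 (ICAT, an inhibitor of the binding of beta-catenin to TCF factors) by 0.39 ± 0.12, both without overlap of the groups. For Ctnnbip1, HFD replicate 1 stood at 2.49 while the other HFD samples lay between 2.01 and 2.07. Ctnna1, the epithelial and broadly expressed alpha-catenin, differed by 0.27 ± 0.11 with overlapping groups, and its call was lost on leaving out any of CO replicates 2, 4 and 5 or HFD replicates 1, 2, 3 and 6 (differences 0.20 to 0.26), and with array weights (0.15). Ctnnd1 (p120-catenin, which keeps classical cadherins at the cell surface) was lower, with a difference of -0.31 ± 0.06 and no overlap. Ctnnbl1, a nuclear protein associated with splicing that is catenin-like in name and fold, had a difference of -0.30 ± 0.10. The Ctnnbl1 call was lost without CO replicate 2 (-0.24) or CO replicate 5 (-0.23). Ctnnd2, the neural delta-catenin, differed by 0.03 ± 0.06 and Ctnna3, the heart and testis alpha-catenin, by 0.33 ± 0.19, neither past the threshold. After quantile normalization Ctnna3 passed at 1.04. It was the dimmest catenin probe to pass the filter, above background on 2 HFD and 3 CO arrays.

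**Figure D2:**
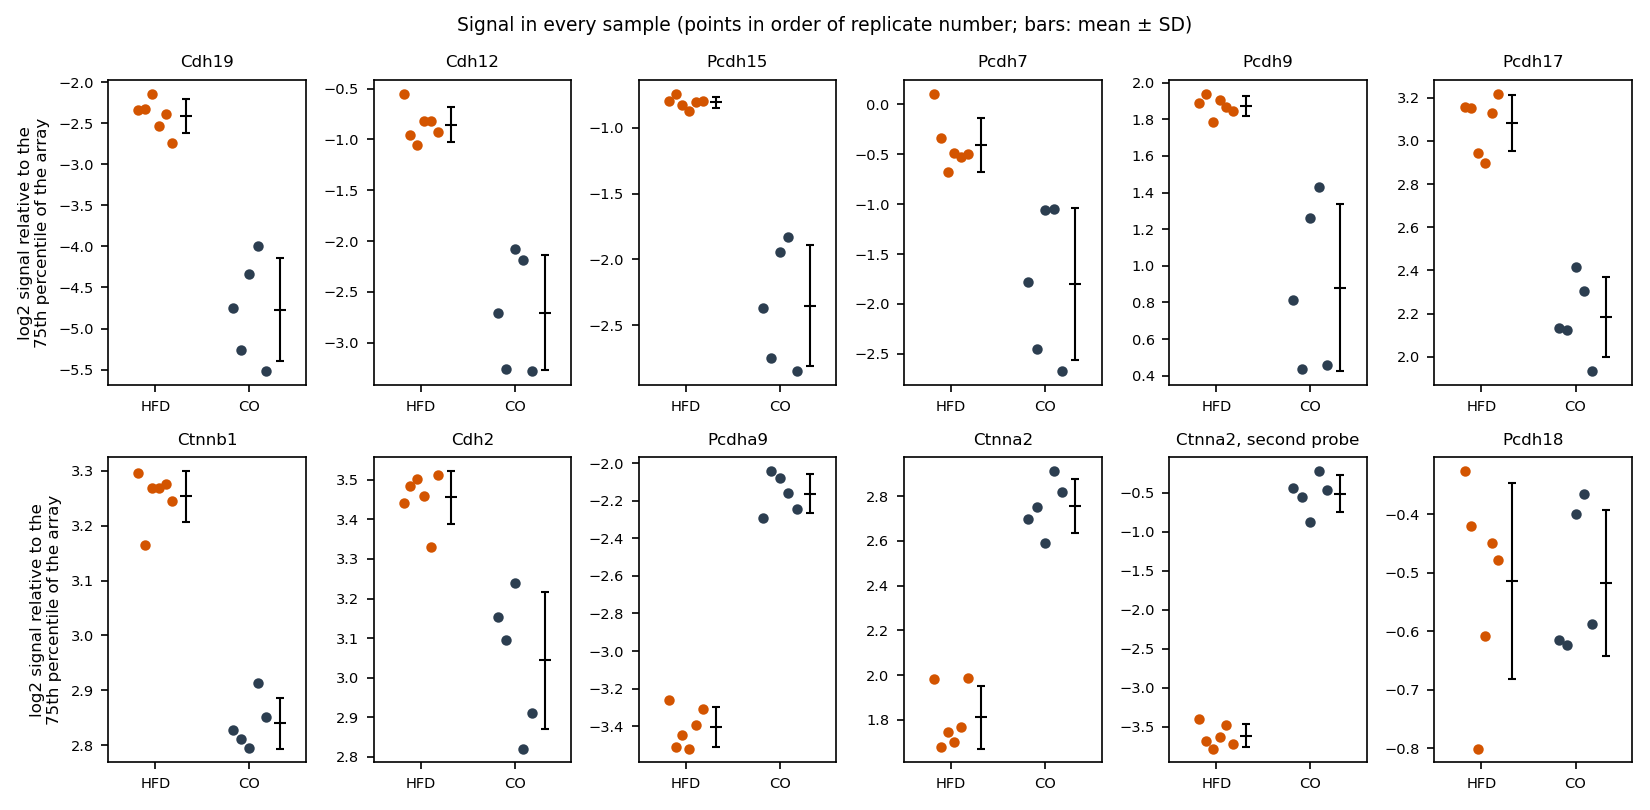
Signal of 11 genes in every sample (log2 relative to the 75th percentile of the array; each panel has its own axis), with HFD samples left and CO samples right in order of replicate number, and the mean ± SD beside them. The groups do not overlap in any panel but that of Pcdh18, and in Cdh19, Cdh12, Pcdh15, Pcdh7 and Pcdh9 CO replicates 3 and 4 lie above CO replicates 2 and 5.

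Of the 5 type I classical cadherins, the strongly adhesive class that includes the epithelial and neural cadherins, 1 passed the threshold (66.4% of all genes), Cdh2. This gene encodes N-cadherin, the main cadherin of neurons and of their synapses, and its brightest probe gave signals of 3.33, 3.47 and 3.51 (lowest, median and highest) in the 6 HFD samples, against 3.15, 3.10, 3.24, 2.82 and 2.91 in CO replicates 1 to 5. All HFD samples lay above all CO samples. The difference was 0.41 ± 0.08 (log2, SE), with an adjusted p of 0.000736 (1.33-fold), and it was -0.26 with scaling to spike-in RNA. A second Cdh2 probe differed by 0.07 ± 0.08 and did not pass (adjusted p = 0.424). Cdh1 (E-cadherin) differed by 0.31 ± 0.29, Cdh3 (P-cadherin) by 0.20 ± 0.20, Cdh4 (R-cadherin, of retina and brain) by 0.13 ± 0.06 and Cdh15 (M-cadherin, of muscle) by -0.19 ± 0.16, none past the threshold. In Cdh1, HFD replicate 1 was the lowest sample at -5.85, and without it the difference was 0.55 with an adjusted p of 0.0219. Without the same sample Cdh4 also passed the threshold (0.16).

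The type II classical cadherins, which label distinct neuronal nuclei and circuits, held the largest increases. Of 12 genes, 8 were higher and 2 lower in HFD samples (22.2% and 44.1% of all genes), with a median of 0.43. Scaling to spike-in RNA gave 2 higher and 3 lower (5.57% and 83.5% of all genes), with a median of -0.24. Cdh19, known from glial cells of the nerve lineage (Schwann cell precursors), gave signals of -2.74, -2.36 and -2.14 (lowest, median and highest) in the 6 HFD samples, against -4.75, -5.25, -4.34, -4.00 and -5.52 in CO replicates 1 to 5. The groups were more than 1 log2 unit apart, and the CO samples were more spread than the HFD samples. The difference was 2.36 ± 0.24 (log2, SE), with an adjusted p of 8.81e-06, a 5.14-fold higher level. Cdh12, a brain cadherin also called N-cadherin 2, gave signals of -1.06, -0.87 and -0.55 (lowest, median and highest) in the 6 HFD samples, against -2.71, -3.26, -2.08, -2.19 and -3.28 in CO replicates 1 to 5. All HFD samples were above all CO samples, and CO replicates 2 and 5 were again the lowest. Cdh12 differed by 1.85 ± 0.22 (log2, SE), with an adjusted p of 2.37e-05 (3.60-fold). Both genes remained higher under every scaling, with differences of 1.69 for Cdh19 and 1.18 for Cdh12 relative to spike-in RNA.

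Cdh12 lies on chromosome 15, and the 250 bases before its start (RefSeq, GRCm38.p6, chr15:21111202-21111451, plus strand) are shown as those of the most increased family gene with an entry. Neither motif above was found in this window, so no base is in capitals.
Cdh12: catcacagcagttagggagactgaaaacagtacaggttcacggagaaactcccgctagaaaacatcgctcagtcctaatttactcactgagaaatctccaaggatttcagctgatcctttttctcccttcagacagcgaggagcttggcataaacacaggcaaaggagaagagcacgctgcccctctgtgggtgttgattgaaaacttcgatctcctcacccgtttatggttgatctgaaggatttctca

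Cdh7 was higher in HFD samples by 0.65 ± 0.08, Cdh10 by 0.50 ± 0.10 and Cdh18 by 0.45 ± 0.10, each a cadherin of neuronal subpopulations and each without overlap of the groups. Cdh6 (K-cadherin, of kidney and brain nuclei) was higher by 0.41 ± 0.10 and Cdh11 (OB-cadherin, of osteoblasts and mesenchyme) by 0.38 ± 0.13, with overlap. With scaling to spike-in RNA these 5 genes turned to values between -0.29 and -0.02. The Cdh11 call was lost without CO replicate 1 (0.29), CO replicate 3 (0.33) or HFD replicate 5 (0.34). Cdh24 differed by 1.24 ± 0.44 (adjusted p = 0.0267) on a dim probe, and HFD replicates 5 and 6, at -4.85 and -4.29, stood above the other HFD samples at -6.98 to -6.26 and the CO samples at -7.30 to -6.77. Its call was lost without HFD replicate 5 (1.03), CO replicate 1 (1.21) or CO replicate 2 (1.20), and relative to spike-in RNA (0.57). Cdh8 and Cdh9, both cadherins of specific synaptic connections, differed by 0.17 ± 0.08 and 0.38 ± 0.18 and did not pass. Cdh8 passed without CO replicate 4 (0.23), and Cdh9 without CO replicate 1 (0.47) or HFD replicate 1 (0.48). Both genes, and Cdh4, also passed with median scaling (0.23 for Cdh8, 0.44 for Cdh9 and 0.19 for Cdh4) and with array weights (0.18, 0.42 and 0.18).

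The lower type II genes were Cdh20, at -0.31 ± 0.07, and Cdh22, the pituitary and brain cadherin, at -0.13 ± 0.05, both without overlap. The Cdh22 call was lost without CO replicate 2 (-0.11) and without CO replicate 4, HFD replicate 3 or HFD replicate 4 (-0.12 each), and after quantile normalization or median scaling. Outside the classical classes, Cdh13, Cdh16 and Cdh26 were lower and did not overlap. Cdh13, the membrane-anchored T-cadherin, which binds adiponectin, averaged 2.40 ± 0.0699 in HFD samples and 2.71 ± 0.154 in CO samples (SD, n = 6 and 5). Its difference was -0.31 ± 0.07 (log2, SE), with an adjusted p of 0.00299. Cdh26 differed by -0.57 ± 0.08 and Cdh16, the kidney cadherin, by -0.95 ± 0.33, the last on a probe above background on 3 of 6 HFD arrays. Cdh23, a component of the tip links of inner ear hair cells, was well above background on no HFD array and on all 5 CO arrays. As a bound, the CO mean was set against the lowest signal well above background on each HFD array, or the probe's own signal if higher. This gave a 1.88-fold lower level in HFD samples. The CO mean includes CO replicate 4 at -4.85, above the other CO samples at -6.96 to -6.42. The adjusted p of 0.0177 (limma) belongs to the unbounded difference of -1.20 ± 0.39 and not to the bound. The Cdh16 and Cdh23 calls were lost after quantile normalization (-0.36 and -0.63).

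The partner of Cdh23 in the tip link, Pcdh15, moved the other way on its brightest probe. Pcdh15 gave signals of -0.87, -0.80 and -0.74 (lowest, median and highest) in the 6 HFD samples, against -2.37, -2.75, -1.95, -1.83 and -2.85 in CO replicates 1 to 5. The HFD samples lay close together and above all CO samples, which were widely spread. The difference was 1.54 ± 0.17 (log2, SE), with an adjusted p of 1.40e-05 (2.92-fold higher in HFD samples), and 0.87 relative to spike-in RNA. Of 5 Pcdh15 probes, annotated to several transcripts, 4 were higher, by 1.54 ± 0.17, 1.45 ± 0.16, 0.94 ± 0.13 and 0.51 ± 0.16, and the fifth differed by -0.10 ± 0.24 (adjusted p = 0.709). The probes at 0.94 and 0.51 did not pass with normexp (0.52 and 0.02) or relative to spike-in RNA (0.27 and -0.16). The probe at 0.51 was above background on 3 HFD and 4 CO arrays. Pcdh15 lies on chromosome 10, and the 250 bases before its start (RefSeq, GRCm38.p6, chr10:73821617-73821866, plus strand) are shown for comparison with those of Ctnna2, which also hold a CACCTG, again in capitals.
Pcdh15: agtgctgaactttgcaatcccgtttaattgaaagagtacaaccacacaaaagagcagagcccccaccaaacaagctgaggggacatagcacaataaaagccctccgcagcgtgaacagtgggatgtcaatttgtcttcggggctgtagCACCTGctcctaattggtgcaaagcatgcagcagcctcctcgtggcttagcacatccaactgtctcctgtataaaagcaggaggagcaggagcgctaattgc
The motif lay 97 to 102 bases before the start of Pcdh15 and 177 to 182 bases before that of Ctnna2, 1 of them higher and the other lower in HFD samples.

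The delta protocadherins act in axon outgrowth and synapse formation. Of 3 delta-1 genes, 2 were higher and 1 lower, and of 5 delta-2 genes, 2 were higher and 2 lower (22.2% and 44.1% of all genes). Relative to spike-in RNA 1 of the 8 was higher, Pcdh7, and 5 were lower (5.57% and 83.5% of all genes). Pcdh7, which acts in axon growth in Xenopus, gave signals of -0.68, -0.49 and 0.11 (lowest, median and highest) in the 6 HFD samples, against -1.78, -2.45, -1.06, -1.05 and -2.68 in CO replicates 1 to 5. HFD replicate 1 was the highest of all samples, CO replicates 2 and 5 were the lowest, and the groups did not overlap. The difference was 1.40 ± 0.30 (log2, SE), with an adjusted p of 0.00145 (2.64-fold). Pcdh9, a further delta-1 gene expressed in the brain, gave signals of 1.78, 1.88 and 1.94 (lowest, median and highest) in the 6 HFD samples, against 0.81, 0.44, 1.26, 1.43 and 0.46 in CO replicates 1 to 5. The HFD samples stood close together and above the CO samples, of which replicates 3 and 4 came nearest. Pcdh9 differed by 0.99 ± 0.17 (log2, SE), with an adjusted p of 0.000335 (1.99-fold). The 2 other Pcdh9 probes differed by 0.11 ± 0.18 and -0.02 ± 0.11 and did not pass, whereas the 2 other Pcdh7 probes were higher by 0.56 ± 0.13 and 0.29 ± 0.11. With normexp neither of these Pcdh7 probes passed (0.42 and 0.14), and the second lost its call without CO replicate 1, 2 or 5 or HFD replicate 1, 2, 3 or 5 (0.22 to 0.30) and with array weights (0.24). The brightest Pcdh9 probe no longer passed relative to spike-in RNA (0.32).

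Pcdh17, a regulator of presynaptic assembly in cortico-basal ganglia circuits, gave signals of 2.90, 3.14 and 3.22 (lowest, median and highest) in the 6 HFD samples, against 2.13, 2.12, 2.42, 2.30 and 1.93 in CO replicates 1 to 5. All HFD samples lay above all CO samples. The difference was 0.90 ± 0.09 (log2, SE), with an adjusted p of 9.56e-06 (1.87-fold), and it no longer passed relative to spike-in RNA (0.23). Pcdh19, the X-linked gene of a human epilepsy of early childhood, was higher by 0.27 ± 0.08 with overlap, and its difference was -0.40 relative to spike-in RNA. Pcdh8 (arcadlin, induced by neuronal activity) was lower, with a difference of -0.47 ± 0.09, as were Pcdh10 (OL-protocadherin, of striatal and thalamic axon tracts) with -0.37 ± 0.09 and Pcdh1 with -0.32 ± 0.08. Pcdh18 differed by 0.00 ± 0.09 with an adjusted p of 0.968, and its samples overlapped throughout. Outside the delta group, Pcdh20 was higher by 0.78 ± 0.17 without overlap, although CO replicate 2 at -0.86 lay below the other CO samples at -0.12 to 0.04. Relative to spike-in RNA its difference was 0.11 and did not pass. Pcdh12, an endothelial protocadherin, was lower without overlap, with a difference of -0.72 ± 0.14.

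**Figure D3:**
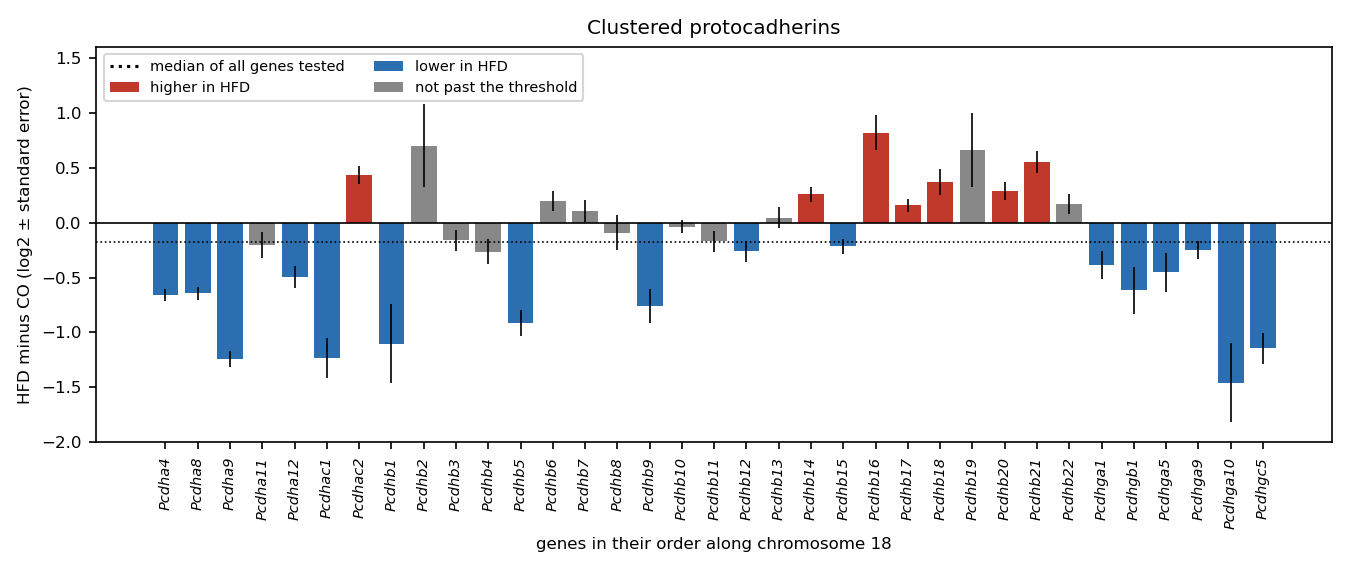
Difference between HFD and CO samples (HFD minus CO, log2, bars with standard errors) for the 35 clustered protocadherins in their order along chromosome 18. The alpha genes at the left, except Pcdhac2, and the gamma genes at the right lie below 0 (Pcdhga5 with HFD signals not well above background), and the 6 red beta genes lie in the later part of the beta array. Relative to spike-in RNA every bar would be 0.67 lower.

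The clustered protocadherins give single neurons a surface identity by which branches of the same cell recognise each other. Of 35 genes, 7 were higher and 16 lower in HFD samples, with a median of -0.20. This is close to the 22.2% higher, 44.1% lower and median of -0.17 over all genes. Relative to spike-in RNA 0 were higher and 30 lower (5.57% and 83.5% of all genes). In the alpha array 5 of 7 genes were lower and 1 higher, with a median of -0.64. Pcdha9 gave signals of -3.52, -3.42 and -3.26 (lowest, median and highest) in the 6 HFD samples, against -2.29, -2.04, -2.08, -2.16 and -2.24 in CO replicates 1 to 5. The groups were about 1 log2 unit apart with little spread in either. The difference was -1.24 ± 0.07 (log2, SE), with an adjusted p of 1.64e-07, a 2.37-fold lower level in HFD samples. Pcdha4 was lower, with a difference of -0.66 ± 0.05, as were Pcdha8 with -0.64 ± 0.06 and Pcdhac1 with -1.23 ± 0.18, the last above background on 4 of 6 HFD arrays. Pcdhac2, the last variable exon before the constant exons, was higher by 0.44 ± 0.08 on its brightest probe without overlap. That probe averaged 1.38 in HFD samples and the other Pcdhac2 probe -3.70. Probe sequences were not available here, so whether a probe reads the variable or the constant exons is not known.

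In the beta array, whose genes have a single coding exon and lack the constant part of the other arrays, 6 of 22 genes were higher, 5 lower and 11 not past the threshold, with a median of 0.07. Over all genes, 22.2% were higher and 44.1% lower. Pcdhb16 gave signals of -2.98, -2.93 and -2.82 (lowest, median and highest) in the 6 HFD samples, against -3.63, -4.12, -3.32, -3.38 and -4.23 in CO replicates 1 to 5. The HFD samples lay above all CO samples, with CO replicates 3 and 4 nearest to them. The difference was 0.82 ± 0.16 (log2, SE), with an adjusted p of 0.000816, and it no longer passed relative to spike-in RNA (0.15). Pcdhb21 was higher by 0.55 ± 0.10 without overlap, and turned to -0.12 relative to spike-in RNA. Pcdhb5 was lower without overlap, with a difference of -0.92 ± 0.12, Pcdhb9 with overlap, at a difference of -0.76 ± 0.15, and Pcdhb1 at a difference of -1.10 ± 0.36, with 3 of 6 HFD arrays above background. The Pcdhb1 call was lost after quantile normalization (-0.66). The HFD samples of Pcdhb1 lay between -7.33 and -6.71, and the CO samples stood at -7.07, -5.11, -6.75, -5.37 and -5.13, so that CO replicates 1 and 3 overlapped with the HFD samples.

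Of the gamma protocadherins, Pcdhga1, Pcdhga9, Pcdhga10, Pcdhgb1 and Pcdhgc5 were lower in HFD samples, but 3 of these calls remained after quantile normalization and 3 after median scaling, and none after another background correction. Over all genes, 44.1% were lower, and 39.4%, 37.3% and 22.5% under these alternatives in turn. Pcdhgc5, the last gamma gene of the array, gave signals of -6.60, -6.39 and -6.02 (lowest, median and highest) in the 6 HFD samples, against -5.44, -5.12, -5.24, -5.48 and -4.72 in CO replicates 1 to 5. It was the only gamma gene without overlap. Its difference was -1.14 ± 0.14 (log2, SE), with an adjusted p of 3.31e-05. Pcdhga10 differed by -1.46 ± 0.36, Pcdhgb1 by -0.62 ± 0.22, Pcdhga1 by -0.39 ± 0.13 and Pcdhga9 by -0.25 ± 0.08, each with overlap. The brightest Pcdhga9 probe averaged 4.04 in HFD samples and its other probe -0.89, and whether either reads constant exons is not known. Pcdhga5 was well above background on no HFD array and all 5 CO arrays, and was at least 1.02-fold lower in HFD samples. Pcdhga10 was above background on 2, and Pcdhgb1 and Pcdhga1 on 3, of the 6 HFD arrays. The Pcdhgb1 call was lost without CO replicate 2 (-0.55), 4 (-0.57) or 5 (-0.55) or HFD replicate 6 (-0.57), and that of Pcdhga5 without any of CO replicates 2 to 5 or HFD replicates 1 and 2 (-0.47 to -0.41).

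**Figure D4:**
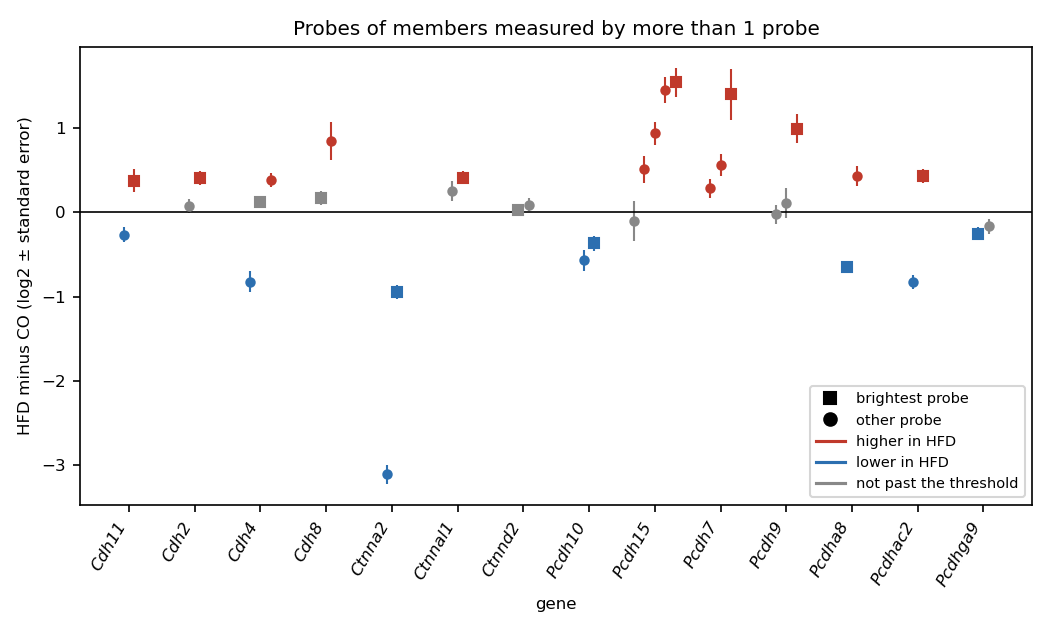
Difference between HFD and CO samples (HFD minus CO, log2, with its standard error) for each tested probe of the 14 genes measured by more than 1 probe, squares marking the brightest probe. Both Ctnna2 probes lie below 0, whereas Cdh4, Cdh11, Pcdha8 and Pcdhac2 each have 1 probe above and 1 below 0 past the threshold.

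For 14 genes more than 1 probe was tested, and probes of the same gene did not always move together. Among the 8 genes with at least 2 probes past the threshold, 4 had probes called in opposite directions (50%), compared with 371 of 2434 genes over the whole array (15.2%). Pcdhac2 was higher by 0.44 ± 0.08 on its brightest probe and lower on the other (-0.83 ± 0.08), neither with overlap. Pcdha8 was lower on its brightest probe (-0.64 ± 0.06) and higher by 0.44 ± 0.12 on the other. Cdh11 was higher by 0.38 ± 0.14 on its brightest probe and lower on the other (-0.26 ± 0.09). For Cdh4, which did not pass on its brightest probe, another probe was higher by 0.38 ± 0.09 and a further one lower (-0.82 ± 0.12). A second Cdh8 probe was higher by 0.85 ± 0.22, a second Pcdh10 probe lower (-0.57 ± 0.13), and second probes of Ctnnd2, Ctnnal1 and Pcdhga9 differed by 0.09 ± 0.07, 0.26 ± 0.12 and -0.17 ± 0.09 without passing. Relative to spike-in RNA the higher probe of each of the 4 genes turned negative (-0.23 for Pcdhac2, -0.23 for Pcdha8, -0.29 for Cdh11 and -0.29 for Cdh4), so that no gene of the 4 then had opposite calls, and the share over the whole array was not computed for that scaling. The second Cdh11 probe lost its call after quantile normalization (-0.04) and with normexp (-0.07), as did the other Pcdha8 probe (0.26) and the lower Cdh4 probe (-0.40) with normexp. The second Cdh8 probe, above background on 3 HFD and 3 CO arrays, no longer passed relative to spike-in RNA (0.18) or with normexp (0.03). Where probes of a gene disagree, the call of the gene is that of its brightest probe only. Which part of a transcript each probe reads is not known here.

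The spread within groups was larger in CO samples for 51 of the 76 genes (67.1%), compared with 59.7% of all genes, with a median SD of 0.13 in HFD samples and 0.18 in CO samples. A single order of the CO samples recurred, with replicates 3 and 4 highest, then 1, then 2 and 5. This order was picked after the values had been seen. It was found in 13 of 76 genes (17.1%) and 13 of the 26 higher genes (50%), against 9.16% of all genes and 33.5% of all higher genes. Among these 13 were Cdh19, Cdh12, Cdh7, Cdh10, Cdh18, Pcdh15, Pcdh7, Pcdh9, Pcdh17, Pcdh19, Pcdhb16 and Pcdhb21, which share their libraries and are no independent support of each other. The striatal markers averaged 1.32, 1.62, 0.14, -0.59 and 1.07 in CO replicates 1 to 5, so that replicates 3 and 4 were the lowest there. The thalamic markers averaged -0.26, -0.30, -0.02, -0.12 and -0.63 in CO replicates 1 to 5, which is the order described. The part of either tissue in this order was not tested.

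Among genes that act with the family, 11 of 19 regulators of the protocadherin clusters (CTCF, cohesin and DNA and histone methylation factors) were higher and 4 lower (22.2% and 44.1% of all genes), with a median of 0.25. Relative to spike-in RNA 9 were higher and 10 lower (5.57% and 83.5% of all genes). Cohesin, which folds the cluster so that a chosen promoter meets its enhancer, held the largest difference, that of Smc3. Of the 19 genes, 9 were at least 2-fold higher (5.61% of all genes), and those named here had the smallest adjusted p. Smc3, a core subunit of the ring, gave signals of 1.84, 2.08 and 2.22 (lowest, median and highest) in the 6 HFD samples, against -0.58, -0.90, -0.23, -0.22 and -1.01 in CO replicates 1 to 5. The groups were more than 1 log2 unit apart. Smc3 differed by 2.64 ± 0.15, Nipbl, the cohesin loader, by 2.44 ± 0.13, Stag2, a regulatory subunit, by 2.43 ± 0.14, and Smc1a, the other core subunit, by 1.09 ± 0.08, all higher in HFD samples under every scaling. The mean of the 19 genes was 0.30 to 0.37 in HFD samples and -0.57 to -0.25 in CO samples, with CO replicates 3 and 4 highest and 2 and 5 lowest.

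Of 6 enzymes that shed and cleave cadherins and protocadherins, 3 were higher and 1 lower, beside 1 higher and 5 lower relative to spike-in RNA. Over all genes, 22.2% were higher and 44.1% lower, and relative to spike-in RNA 5.57% and 83.5%. Adam10, the sheddase of N-cadherin, gave signals of 1.51, 1.56 and 1.67 (lowest, median and highest) in the 6 HFD samples, against 0.38, 0.02, 0.64, 0.40 and 0.01 in CO replicates 1 to 5. No samples overlapped, and the HFD samples were more tightly grouped. Adam10 differed by 1.29 ± 0.11 (log2, SE), with an adjusted p of 2.21e-06. Of the gamma-secretase subunits, Psen2 was higher by 0.32 ± 0.06 and Aph1b by 0.23 ± 0.08, both turning negative relative to spike-in RNA (-0.35 and -0.44), and Ncstn was lower (-1.09 ± 0.08). Of 31 adherens junction partners 8 were higher and 14 lower, close to the 22.2% and 44.1% of all genes, with a median of -0.05, and relative to spike-in RNA 0 were higher and 26 lower. Those with the smallest p were all lower, namely Ptprm, an adhesive tyrosine phosphatase (-1.09), Magi1 (-0.64) and Magi2 (-0.55), scaffolds that bind catenin complexes, and Nectin1, an adhesion molecule that recruits cadherins (-0.31). Of 20 other genes of the cadherin superfamily (Fat, Dachsous, Celsr, calsyntenin, desmosomal and related genes) 5 were higher and 9 lower, again close to all genes, with a median of -0.15, and relative to spike-in RNA 1 was higher and 16 lower. Clstn1 (calsyntenin 1, a cargo adaptor of axonal transport) was lower (-0.76 ± 0.06), as was Fat2 (-0.64 ± 0.08), while desmosomal Dsc2 was higher by 1.38 ± 0.14. The calls of Dsc2 (0.40) and Ptprm (-0.42), both on dim probes, were lost with normexp, among the others listed above. The desmosomal Dsg3 was well above background on no HFD array and all 5 CO arrays, and was at least 1.09-fold lower in HFD samples.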

How the data were processed

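RNA from 6 HFD and 5 CO hypothalami was hybridized to single-dye Agilent mouse arrays. For each array the authors deposited linear intensity values of its spots, with the background already subtracted by Feature Extraction (10.7.3.1 per the file headers, 10.8 per the submitters' processing notes). How arrays were normalized to each other is not given here.

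Here, processed signals were put on a log2 scale relative to the 75th percentile of their array, without control and outlier spots, and spots of a probe were averaged. Probes (26369 of 39429) were named through their accessions in a gene table of GRCm38.p6. Probes that 5 or more of the 11 arrays measured well above background entered limma 3.58.1 (lmFit, eBayes, two-sided) in R 4.3.3, with Benjamini-Hochberg adjustment over the 17188 genes (brightest probe of each) or, for additional probes, over all 31790 probes. Both fits hold all 11 arrays. No arrays were identical, and their number limits the precision. Spike-in scaling used 8 of 10 spike-in probes.

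The genes, lists and tests were chosen with earlier results of these data known. Named are all catenins, classical cadherins and delta protocadherins, the 5 largest increases and decreases among the rest, up to 4 genes per clustered array or list by p, and, after their values were seen, Cdh13, Cdh16, Cdh26, Pcdh12, Pcdhb1, Pcdhga5 and Pcdhgb1. Alternatives were other scalings, background correction, filters, blocks, tests (Mann-Whitney, Rank Product) and leaving out each array. Promoter sequences are those of RefSeq, found for 30 of the 76 genes.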

Additional observations from a re-analysis of the deposited data

Results flagged for a closer look

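In 13 of 154 groups of samples looked at (a group being the HFD or the CO samples of 1 named gene or further probe), the highest or lowest sample stood apart from the others by Dixon's criterion, beside about 1 in 20 expected by chance. Among HFD samples, replicate 1 was low for Cdh11 (-1.55, the others -1.14 to -0.97) and high for Ctnnbip1 (2.49, the others 2.01 to 2.07). Replicate 2 was low for Pcdhga1 (-7.39) and high for the Cdh4 probe that was lower in HFD samples (-4.73, the others -5.31 to -5.10). Replicate 3 was low for Cdh23 (-8.71) and for the second Cdh8 probe (-7.93). Replicate 6 was low for Cdh16 (-8.80) and high for the second Ctnnd2 probe (3.32, the others 3.06 to 3.11). Among CO samples, replicate 2 was low for Pcdh20 (-0.86, the others -0.12 to 0.04) and replicate 3 for Pcdhgb1 (-7.31). Replicate 4 was high for Cdh20 (-1.36, the others -1.58 to -1.51) and Cdh23 (-4.85, the others -6.96 to -6.42), and replicate 5 for Cdh24 (-6.77, the others -7.30 to -7.18). Why single samples stood apart was not tested.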

How the results depend on the processing

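The counts of 26 higher and 29 lower genes moved with scaling to spike-in RNA (4 and 55, median -0.63), with normexp on the median signals, run after seeing the data in place of the planned mean signals (8 lower), with the Rank Product test (3 higher, Cdh12, Cdh19 and Pcdh15, and 0 lower, where it called 2.69 and 2.21% of all genes and limma gave 29 lower) and with a 2-fold limit (5 and 6). The 6 lower genes at the 2-fold limit include Cdh23, whose bound of 1.88-fold lies under it. The Mann-Whitney test gave 25 and 27. Taking the leading number of the CO titles as a random block gave 26 and 29. Leaving out each array gave 24 to 27 higher and 24 to 29 lower genes, a median of 0.03 to 0.07, and Ctnna2 differences of -0.98 to -0.90 and of -3.20 to -3.03. Same-numbered samples deviated together with correlations of -0.10 to 0.18, and 2 of 5 correlated best with their own number. So few samples cannot decide whether the numbers pair them. The replicate block, in which HFD replicate 6 carries no weight, gave 26 higher and 26 lower, with Ctnna2 at -0.98 and -3.08, and leaving out that sample without a block gave 25 and 28 with the same Ctnna2 differences. Under the block Cdh22, Pcdhga9, Pcdhgb1, Aph1b and the second Cdh11 probe did not pass (adjusted p 0.103, 0.0578, 0.084, 0.0638 and 0.0708, limma). With array weights Ctnna1 (0.15), Pcdhga1 (-0.41), Pcdhga5 (-0.52) and Pcdhgb1 (-0.48) did not pass. Relative to spike-in RNA the sign turned for Ctnnb1, Ctnnal1, Cdh2 and Cdh6 (-0.26 each), Ctnnbip1 (-0.28), Cdh9 and Cdh11 (-0.29), Cdh18 (-0.22), Cdh10 (-0.17), Cdh7 (-0.021), Ctnna1 and Pcdh19 (-0.40), Ctnna3 and Psen2 (-0.35), Cdh1 (-0.36), Cdh3 (-0.47), Cdh4 (-0.54), Cdh8 (-0.50), Aph1b (-0.44), Ctnnd2 (-0.64), Pcdh18 (-0.67), Pcdhac2 (-0.23), Pcdhb21 (-0.12) and further probes of Cdh2 (-0.60), Cdh4 (-0.29), Ctnnal1 (-0.41), Ctnnd2 (-0.58), Pcdh15 (-0.16), Pcdh7 (-0.11 and -0.38), Pcdh9 (-0.56) and Pcdha8 (-0.23). The sign also turned after quantile normalization for Pcdh18 (-0.023), Pcdhga1 (0.17), Pcdhga5 (0.25) and probes of Pcdh15 (0.33) and Pcdh9 (0.15), with median scaling for a Pcdh9 probe (0.039), and with normexp for Aph1b (-0.058), Cdh3 (-0.0012), Ctnna3 (-0.00059) and a Ctnnd2 probe (-0.040). Values near 0 turned with the slide as a block (Pcdh18, -0.0049), the replicate block (Pcdh18, -0.0026, and a Pcdh9 probe, 0.013), array weights (a Pcdh15 probe, 0.057) and single libraries left out. With these, Pcdh18 ranged from -0.033 without HFD replicate 1 to 0.062 without HFD replicate 3, Ctnnd2 from -0.0077 without CO replicate 4 to 0.058 without CO replicate 2, the fifth Pcdh15 probe from -0.36 without CO replicate 1 to 0.042 without CO replicate 4, and Pcdh9 probes from -0.044 without CO replicate 5 to 0.23 without CO replicate 3 and from -0.086 to 0.080 without the same libraries. The causes were not tested beyond the shift of 0.67 by which spike-in scaling lowers every gene. Signal near background limits Pcdhga1, Pcdhga5, Pcdhga10, Pcdhgb1, Cdh16, Cdh23, Cdh24, Ctnna3, Pcdhac1, Pcdhb1 and Dsg3. It also limits the second Cdh8 probe and the Pcdh15 probe that was higher by 0.51.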
